A study of Mus musculus with 6 samples.

Results

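Bone morphogenetic proteins (BMPs), activins and transforming growth factor beta (TGF-beta) are secreted ligands that bind pairs of type I and type II receptor kinases. The receptors phosphorylate Smad proteins, which join the common partner Smad4 and enter the nucleus. Proteases, binding proteins and co-receptors outside the cell set how much ligand reaches the receptors, and the Id genes are classical targets of BMP signalling. In the developing forebrain BMPs from the dorsal midline, the choroid plexus and the meninges pattern the cortical wall, and later act on neurogenesis and gliogenesis.

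The genes described here are 48 BMP and TGF-beta pathway genes, chosen by symbol from a deposited table of 23016 genes. Each symbol matched 1 entry, and all 48 passed the filter on low values. They comprise 13 ligands, 3 tolloid proteases, 7 extracellular antagonists or modulators, 4 co-receptors, 5 type I and 4 type II receptors, 6 receptor-regulated or common Smads, 2 inhibitory Smads and 4 Id genes. The samples were dissected cerebral cortex of 3 Fezf2-/- (Fezf2 KO) pups and 3 Fezf2+/+ (wild type) pups at postnatal day 0, from crosses of Fezf2+/- mice, with 1 total RNA library per brain. Replicates 1 and 2 of each genotype came from litter m1 and replicate 3 from litter m2. Fezf2 encodes a zinc finger transcription factor required for the fate of subcerebral projection neurons. The question is how these genes differ between newborn cortex without and with intact Fezf2.

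Values are the deposited normalised reads, in which each library was scaled by a size factor of its own, and the libraries held 44978380 to 52872577 recovered reads. Fezf2 itself had 1989, 1377 and 1533 normalised reads in the Fezf2 KO libraries, against 5030, 5928 and 5396 in the wild type libraries. All 8 markers of cortical neurons had at least 10 normalised reads in every library, and 0 of them passed the test (0 also by edgeR and by DESeq2, 2 with an unadjusted limma p under 0.05). Libraries did stand apart in markers of tissue next to the cortex. Wild type 1 had the highest value of all 10 meningeal markers, whose sum was 2663 to 3858 in Fezf2 KO libraries, 12406 in wild type 1, and 3225 and 1885 in wild type 2 and 3. Fezf2 KO 1 had the highest value of 8 of 9 choroid plexus markers, with a sum of 9877 against 156 to 157 in the other Fezf2 KO libraries and 91.1 to 151 in wild type. The 12 striatal markers summed to 5688, 11488 and 7063 in Fezf2 KO 1 to 3, against 17571, 15159 and 13468 in wild type 1 to 3, a difference between genotypes rather than in 1 library. Of these 12, 11 were lower in Fezf2 KO with an unadjusted limma p under 0.05, and 1 was called by limma, Ppp1r1b (0.40-fold, limma adjusted p = 0.00594), with 1 called by edgeR and 2 by DESeq2. Fewer cells of a type and less RNA per cell cannot be told apart in such tissue RNA.

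In Fezf2 KO cortex 5 of the 48 genes changed, by limma with Benjamini-Hochberg adjustment over 17557 genes and a threshold of 0.05. The ligand Gdf10 and the co-receptor Rgma fell, and the ligand subunit Inhbb, the BMP antagonist Nog and the tolloid protease Tll2 rose. Of all genes tested 0.712% changed, 0.404% being higher and 0.308% lower in Fezf2 KO. No receptor, Smad or Id gene was among the 5. The median log2 change of the 48 genes was 0.04, beside 0.00 for all genes tested, with 27 above 0 and 21 below. In 13 of the 48 the genotypes did not overlap, 10 higher and 3 lower in Fezf2 KO, where 14.5% of all genes tested did not overlap (7.6% higher, 6.85% lower). An unadjusted limma p under 0.05 was found for 13 of the 48, beside 9.03% of all genes. By edgeR on recovered reads 4 of the 48 changed, the 5 without Tll2, where 0.689% of all genes did (0.382% higher, 0.308% lower). By DESeq2 6 of the 48 changed, the 5 and Fst, where 2.3% of all genes did (1.38% higher, 0.918% lower).

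The number that changed moved with the libraries used. It was 3, 4 and 2 without Fezf2 KO 1, 2 and 3, where 0.615%, 0.678% and 0.347% of all genes were called. Leaving out wild type 1, 2 and 3 gave 2, 3 and 2, where 0.541%, 0.439% and 0.421% of all genes were called. With litter as a replicate block it was 3 (0.786% of all genes), and in litter m1, which left 2 libraries of each genotype, it was 0 (0.165% of all genes). Without both Fezf2 KO 1 and wild type 1, the libraries with the most choroid plexus and meningeal RNA, 1 gene, Gdf10, passed (0.325% of all genes). The fits without libraries used fewer samples.

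**Figure D1:**
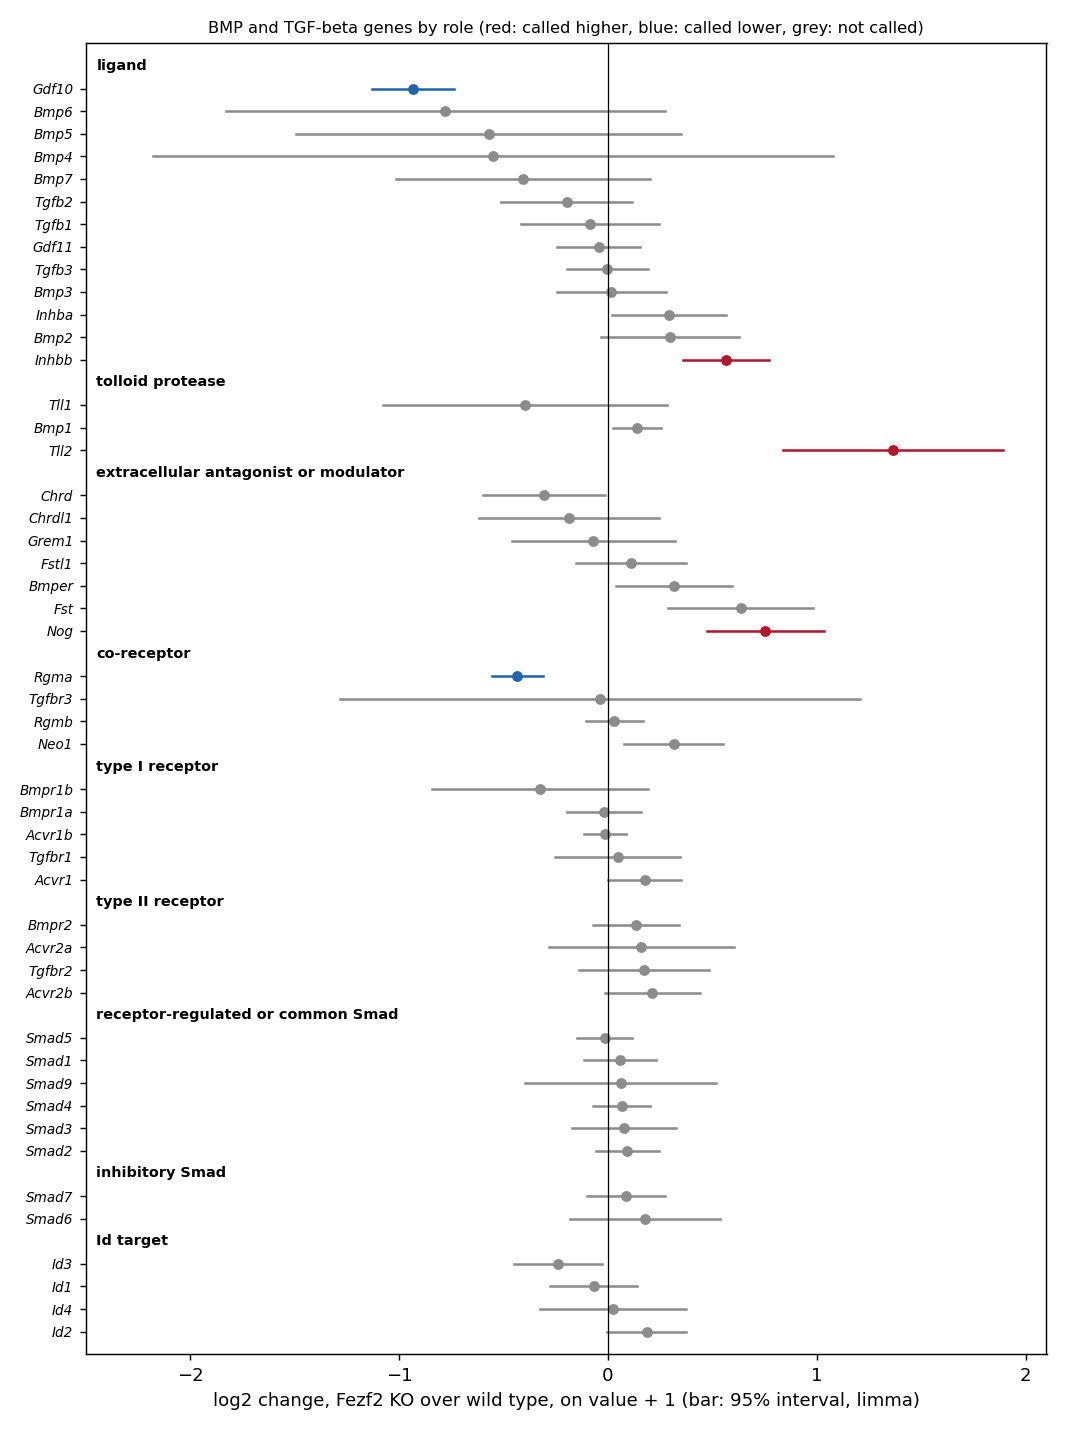
Log2 change, Fezf2 KO over wild type, of the 48 genes grouped by role, on the x axis, with 95% intervals from limma (n = 3 libraries per genotype). Gdf10 (-0.93) and Rgma (-0.43) were called lower, and Inhbb (0.57), Nog (0.75) and Tll2 (1.36) were called higher. No receptor, Smad or Id gene was called, where 0.712% of all genes were.

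For the genes that changed, promoter windows from 250 bases before to 50 bases after the annotated start were taken from RefSeq on GRCm38.p6, a later build than the mm9 named by the submitters. They are shown because these transcripts differed between genotypes. Windows were found for Gdf10 (chr14:33923337-33923636, plus strand), Inhbb (chr1:119422199-119422498, minus strand) and Tll2 (chr19:41206725-41207024, minus strand); Rgma and Nog are named only. Capitals mark GGCGCC, a GC-rich element, and CAGAC or its complement GTCTG, a Smad box with its flanking base, searched on both strands without overlap in these windows. They are written 5′ to 3′ on the strand of the gene.
Gdf10: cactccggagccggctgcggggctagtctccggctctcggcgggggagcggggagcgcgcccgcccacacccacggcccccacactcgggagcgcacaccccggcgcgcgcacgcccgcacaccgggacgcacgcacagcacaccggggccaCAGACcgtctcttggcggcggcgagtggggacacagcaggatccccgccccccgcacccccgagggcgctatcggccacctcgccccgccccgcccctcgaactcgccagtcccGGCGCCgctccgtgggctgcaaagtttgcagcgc
Inhbb: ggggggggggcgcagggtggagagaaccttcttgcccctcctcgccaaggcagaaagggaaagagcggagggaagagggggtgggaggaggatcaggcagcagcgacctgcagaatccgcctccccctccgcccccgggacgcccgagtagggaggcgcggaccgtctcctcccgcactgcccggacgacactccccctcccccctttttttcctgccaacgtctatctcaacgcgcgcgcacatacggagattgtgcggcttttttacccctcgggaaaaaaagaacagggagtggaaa
Tll2: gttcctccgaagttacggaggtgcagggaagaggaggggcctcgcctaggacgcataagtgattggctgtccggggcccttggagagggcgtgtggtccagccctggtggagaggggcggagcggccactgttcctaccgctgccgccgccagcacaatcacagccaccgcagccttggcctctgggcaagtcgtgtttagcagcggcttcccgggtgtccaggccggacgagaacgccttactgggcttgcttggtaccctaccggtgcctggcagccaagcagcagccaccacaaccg

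The Gdf10 window held 1 CAGAC from base 153 and 1 GGCGCC from base 267, counted from the 5′ end. The windows of Inhbb and Tll2 held neither set of letters. Of 32851 such windows over all genes 11.9% held GGCGCC and 49.6% held CAGAC or GTCTG. Of 41 windows matched to 34 of the 48 pathway genes, 14 held GGCGCC and 17 held CAGAC or GTCTG. Some genes had more than 1 window, and overlapping windows of Smad5 and of Rgmb counted the same site again. The windows are thus not independent, and a difference from all windows was not tested. Among the Id genes matched, Id2 and Id4 held 1 GGCGCC each and Id3 held 2 copies of CAGAC or GTCTG. The motifs were chosen after the values were seen, and a match describes letters, not a bound site.

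Among the ligands Gdf10 fell and Inhbb rose, and 11 of 13 did not pass the test, which 0.712% of all genes passed. Gdf10, also called BMP3B, is a divergent member of the BMP family. It had 833, 1005 and 964 normalised reads in Fezf2 KO 1 to 3, against 1702, 1889 and 1754 in wild type 1 to 3. The genotypes were far from overlapping, with means of 934 ± 89.8 in Fezf2 KO and 1782 ± 96.6 in wild type (SD, n = 3 each), which is 0.523-fold (log2 -0.93, SE 0.09, limma adjusted p = 0.00289). It remained called without each library in turn (limma adjusted p from 0.00473 to 0.0171) and without both Fezf2 KO 1 and wild type 1 (0.0212). In litter m1 alone its log2 change was -0.97 with a limma adjusted p of 0.0873. Gdf10 lies on chromosome 14, as Fezf2 does. Bmp1, Bmp4 and Bmpr1a lie there too and did not pass the test, where 0.712% of all genes did. An effect of position near Fezf2 was not tested.

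Inhbb encodes the beta B subunit that forms activin B, and with the alpha subunit inhibin B. It had 4031, 3343 and 3556 normalised reads in Fezf2 KO 1 to 3, against 2294, 2716 and 2372 in wild type 1 to 3. The lowest Fezf2 KO library lay above the highest wild type library, and the change was 1.48-fold (log2 0.57, SE 0.09, limma adjusted p = 0.035). The limma adjusted p was 0.0521 with litter as a replicate block. Without Fezf2 KO 1 and 3 it was 0.0669 and 0.129, without wild type 1 and 3 it was 0.115 and 0.135, and it was 0.158 without both Fezf2 KO 1 and wild type 1. The related subunit gene Inhba, which forms activin A, had 1093, 921 and 1028 normalised reads in Fezf2 KO libraries, against 748, 768 and 981 in wild type libraries. Its groups overlapped and it did not pass (log2 0.29, 95% interval 0.02 to 0.56, limma adjusted p = 0.496).

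**Figure D2:**
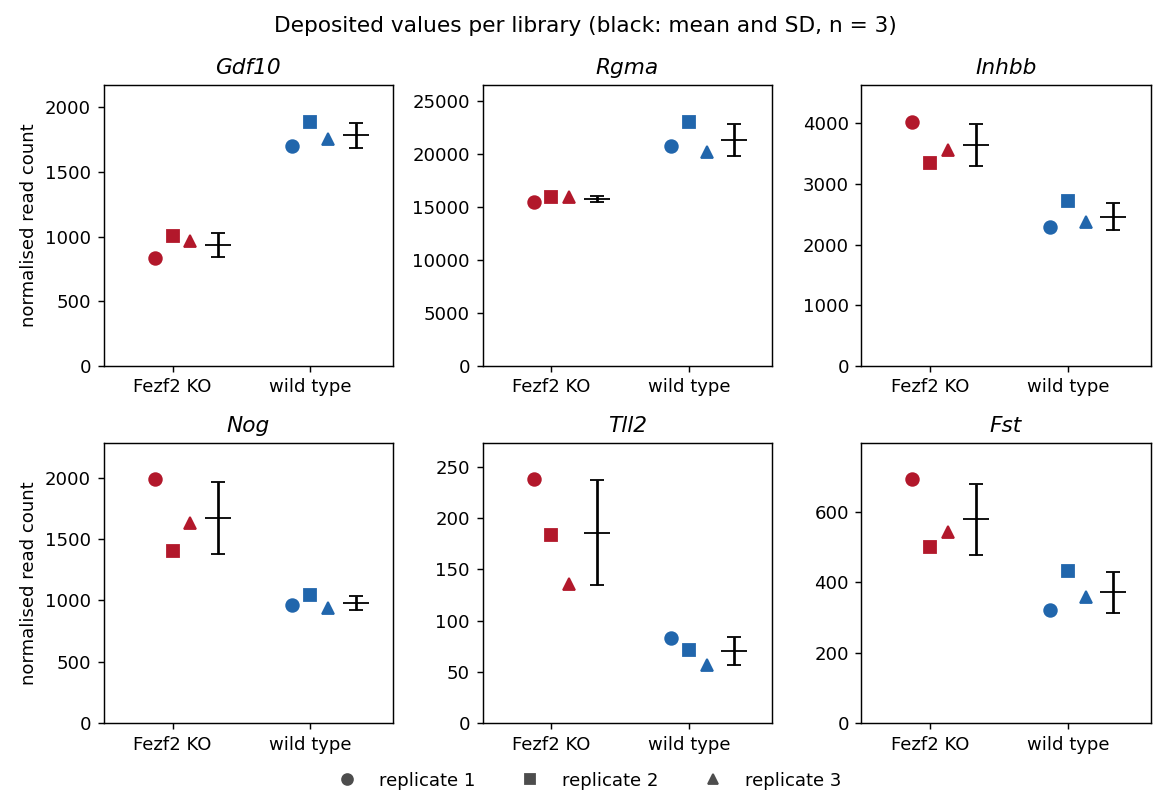
Deposited normalised read counts (y axis, from 0) per library for the 5 genes that changed and for Fst, which did not pass the limma test, with mean and SD in black (n = 3 per genotype). In all 6 panels the Fezf2 KO libraries lie wholly on one side of the wild type libraries, below for Gdf10 and Rgma and above for Inhbb, Nog, Tll2 and Fst.

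The classical BMP ligands gave no call, and several were set apart by 1 library. Bmp6 had 155, 189 and 123 normalised reads in Fezf2 KO libraries, against 619, 171 and 174 in wild type libraries. Bmp7 had 382, 380 and 359 in Fezf2 KO libraries, against 812, 364 and 412 in wild type libraries. Bmp4, a dorsal midline ligand, had 13.8, 26.0 and 28.3 in Fezf2 KO libraries, against 118, 13.96 and 19.8 in wild type libraries. In each of these wild type 1 alone was high. The same held for Bmp5, with 13.8, 8.98 and 10.6 in Fezf2 KO libraries, against 31.8, 11.3 and 12.9 in wild type libraries. It held too for the co-receptor gene Tgfbr3, with 52.0, 69.2 and 38.9 in Fezf2 KO libraries, against 138, 41.9 and 25.8 in wild type libraries.

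These 5 were the pathway genes in which 1 library exceeded all others by more than 1.5 times, by 1.97 times (Bmp7) to 4.17 times (Bmp4), and that library was wild type 1 for each. Over all genes tested 0.809% exceeded that ratio in wild type 1 and 0.148% to 0.347% in the other libraries. Wild type 1 was also the library with the highest meningeal markers, among them Slc6a13 at 2.65 to 4.87 in Fezf2 KO, 361 in wild type 1, and 2.62 and 3.44 in wild type 2 and 3. Without that library the log2 change of Bmp6 was -0.17 in place of -0.78, that of Bmp7 -0.05 in place of -0.41, and that of Bmp5 -0.13 in place of -0.57. The sign turned for Bmp4 (0.37 in place of -0.55) and Tgfbr3 (0.64 in place of -0.04), and limma adjusted p values without wild type 1 lay from 0.781 to 0.981 in these 5 genes. Meningeal RNA was not tested as a source of these reads.

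**Figure D3:**
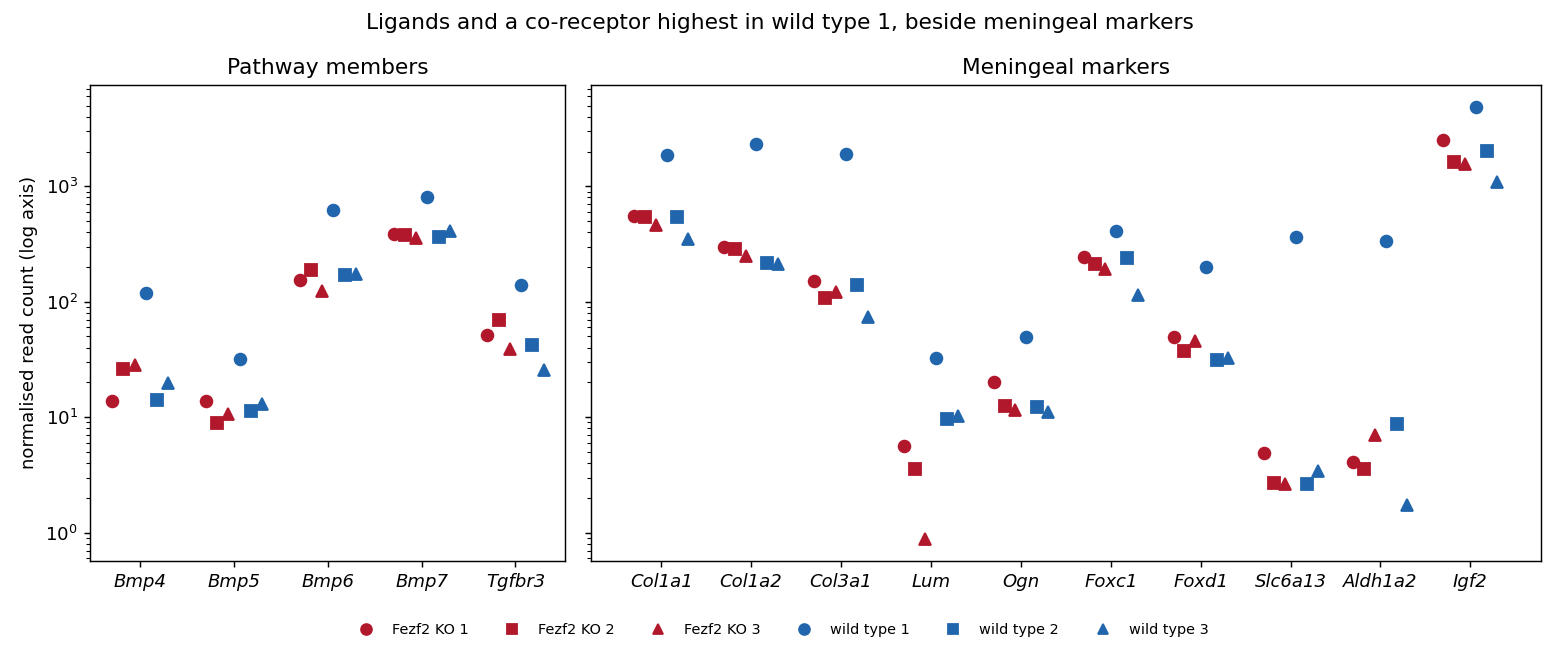
Normalised read counts on a log axis for 4 BMP ligands and Tgfbr3 (left) and for the 10 meningeal markers (right), 1 symbol per library. Wild type 1 (blue circles) is the highest library in every gene shown.

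The remaining ligands did not pass the test, though the intervals of some reach sizeable changes. The 95% interval of the log2 change was -0.03 to 0.63 for Bmp2 and -0.51 to 0.11 for Tgfb2. Bmp2 (log2 0.30), Bmp3 (0.02), Gdf11 (-0.04), Tgfb1 (-0.09), Tgfb2 (-0.20) and Tgfb3 (0.00) had overlapping genotypes and limma adjusted p values from 0.615 to 0.998. Tgfb3 was the closest, with 515, 570 and 558 normalised reads in Fezf2 KO libraries, against 563, 515 and 568 in wild type libraries (95% interval of the log2 change -0.20 to 0.19).

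Of the tolloid proteases, Bmp1 cleaves chordin and so releases bound BMP, and it also processes procollagen. Cleavage of chordin was not measured here for any of them. Tll2 had 238, 183 and 136 normalised reads in Fezf2 KO 1 to 3, against 83.3, 71.6 and 56.7 in wild type 1 to 3. It was the pathway gene with the largest fold among the 5, at 2.58-fold (log2 1.36, SE 0.23, limma adjusted p = 0.0445), and the genotypes did not overlap. Its limma adjusted p lay under 0.05 with litter as a replicate block (0.0146) and without Fezf2 KO 3 (0.0469). Without Fezf2 KO 1 and 2 it was 0.0952 and 0.106, without wild type 1, 2 and 3 it was 0.0641, 0.14 and 0.154, and edgeR gave 0.0507. Bmp1 had 4854, 4594 and 4682 in Fezf2 KO libraries, against 4355, 4102 and 4383 in wild type libraries, without overlap but with a log2 change of 0.14 (limma adjusted p = 0.42). Tll1 had few reads, with 20.3, 27.8 and 14.1 in Fezf2 KO libraries, against 33.7, 21.8 and 25.8 in wild type libraries (limma adjusted p = 0.805).

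Of the 7 extracellular antagonists and modulators 1 rose and 0 fell, where 0.404% of all genes rose and 0.308% fell. Nog encodes noggin, which binds BMPs and blocks their receptor contacts. It had 1987, 1400 and 1628 normalised reads in Fezf2 KO 1 to 3, against 960, 1048 and 939 in wild type 1 to 3. The genotypes did not overlap, with means of 1672 ± 296 in Fezf2 KO and 982 ± 57.7 in wild type (SD, n = 3 each), or 1.69-fold (log2 0.75, SE 0.12, limma adjusted p = 0.0399). The limma adjusted p was 0.0618 with litter as a replicate block, 0.141 without Fezf2 KO 3, 0.123, 0.0872 and 0.152 without wild type 1, 2 and 3, and 0.116 without both Fezf2 KO 1 and wild type 1.

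Fst encodes follistatin, which binds activins and, more weakly, BMPs. It had 692, 500 and 541 normalised reads in Fezf2 KO 1 to 3, against 321, 433 and 359 in wild type 1 to 3. The genotypes did not overlap (1.55-fold, log2 0.63, SE 0.15), yet limma did not pass it (adjusted p = 0.151), while DESeq2 gave an adjusted p of 0.0089. Within the Fezf2 KO libraries Nog, Inhbb and Fst were each highest in Fezf2 KO 1, where the striatal marker sum was lowest, and lowest in Fezf2 KO 2, where that sum was highest. Gdf10 ran the other way, lowest in Fezf2 KO 1 and highest in Fezf2 KO 2. Rgma was also lowest in Fezf2 KO 1, with near equal values in Fezf2 KO 2 and 3 (15907 and 15911). Tll2 was lowest in Fezf2 KO 3, outside that order. Within wild type the striatal sum was highest in wild type 1, while Nog, Inhbb, Fst, Gdf10 and Rgma were each highest in wild type 2. The part of striatal tissue in these values was not tested.

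The other antagonists did not pass. Chrd, which encodes chordin, had 330, 364 and 459 normalised reads in Fezf2 KO libraries, against 480, 452 and 480 in wild type libraries (log2 -0.30, limma adjusted p = 0.519). Its groups overlapped. Bmper, a chordin-like BMP binding protein, had 291, 340 and 310 in Fezf2 KO libraries, against 288, 235 and 234 in wild type libraries (log2 0.32, limma adjusted p = 0.467), with Fezf2 KO libraries all above wild type by a narrow margin. Chrdl1 (log2 -0.19), Fstl1 (0.11) and Grem1 (-0.07) had overlapping genotypes.

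Among the 4 co-receptors 1 fell and 0 rose, where 0.308% of all genes fell and 0.404% rose. Rgma encodes a membrane-anchored repulsive guidance molecule that binds BMPs and also signals to axons through neogenin. It had 15442, 15907 and 15911 normalised reads in Fezf2 KO 1 to 3, against 20746, 23026 and 20148 in wild type 1 to 3. The Fezf2 KO libraries lay close together and below all wild type libraries, at 0.74-fold (log2 -0.43, SE 0.05, limma adjusted p = 0.0111). The limma adjusted p was 0.0589 without Fezf2 KO 3, 0.0872 without both Fezf2 KO 1 and wild type 1, 0.117 in litter m1 alone, and from 0.0221 to 0.0372 without each other library in turn. In GENCODE 258 exonic bases of Rgma overlap the antisense transcript A730056A06Rik, and with strand not stated the reads of that stretch cannot be assigned.

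Neo1 encodes neogenin, the receptor for repulsive guidance molecules. It had 19047, 18728 and 17154 normalised reads in Fezf2 KO libraries, against 15350, 16761 and 12354 in wild type libraries. The lowest Fezf2 KO library was just above the highest wild type library, and the change did not pass (log2 0.31, 95% interval 0.08 to 0.55, limma adjusted p = 0.342). Rgmb, the paralogue of Rgma, had 4645, 4415 and 4412 in Fezf2 KO libraries, against 4605, 4513 and 4088 in wild type libraries, with overlap and a log2 change of 0.03 (95% interval -0.11 to 0.17). The difference between Rgma and Rgmb in response was not tested.

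None of the 9 receptors and 8 Smads was called by limma, edgeR or DESeq2, beside 0.712%, 0.689% and 2.3% of all genes. Of these receptors and Smads 1 (Acvr1) had an unadjusted limma p under 0.05, beside 9.03% of all genes. At such shares 0 calls in a short list does not show that its genes are unchanged. Their log2 changes ran from -0.32 (Bmpr1b) to 0.21 (Acvr2b), and their 95% intervals reached from -0.84 (Bmpr1b) to 0.60 (Acvr2a). Acvr1, the type I receptor ALK2, had 3616, 3049 and 3133 normalised reads in Fezf2 KO libraries, against 2812, 2798 and 3046 in wild type libraries (log2 0.18, limma adjusted p = 0.545). Those groups were separated by only a few reads.

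The BMP type I receptor Bmpr1a was close between genotypes, with 942, 946 and 829 normalised reads in Fezf2 KO libraries, against 893, 911 and 941 in wild type libraries. Bmpr1b had 352, 339 and 306 in Fezf2 KO libraries, against 282, 450 and 565 in wild type libraries, so the wild type libraries spread on both sides of the Fezf2 KO ones. The BMP type II receptor Bmpr2 had 1307, 1385 and 1135 in Fezf2 KO libraries, against 1232, 1152 and 1097 in wild type libraries. Overlap held in all of these. The activin type II receptor Acvr2b had 641, 664 and 543 in Fezf2 KO libraries, against 558, 506 and 525 in wild type libraries (log2 0.21, limma adjusted p = 0.591). Acvr1b, Tgfbr1, Acvr2a and Tgfbr2 had log2 changes of -0.01, 0.05, 0.16 and 0.17, all with overlap.

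Of the BMP-responsive Smads, Smad1 and Smad5 were near equal. Smad1 had 4377, 3791 and 4106 normalised reads in Fezf2 KO libraries, against 3854, 4267 and 3669 in wild type libraries (95% interval of the log2 change -0.11 to 0.23). Smad5 had 2683, 2660 and 2485 in Fezf2 KO libraries, against 2635, 2539 and 2739 in wild type libraries (95% interval -0.15 to 0.12). Smad9 was low, with 84.4, 132 and 121 in Fezf2 KO libraries, against 100.1, 95.1 and 125 in wild type libraries. The 95% interval of its log2 change, -0.40 to 0.52, does not show near equality. The genotypes overlapped in each.

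The common partner Smad4 had 3996, 3626 and 3690 normalised reads in Fezf2 KO libraries, against 3688, 3429 and 3693 in wild type libraries (95% interval of the log2 change -0.07 to 0.20). Smad2, a TGF-beta and activin effector, had 1395, 1372 and 1395 in Fezf2 KO libraries, against 1339, 1217 and 1353 in wild type libraries. Smad2 did not overlap, but its log2 change was 0.09 (limma adjusted p = 0.783), and Smad3 had a log2 change of 0.08 with overlap. Of the inhibitory Smads, which are themselves induced by the pathway, Smad6 had 223, 186 and 201 in Fezf2 KO libraries, against 218, 177 and 150 in wild type libraries. Smad7 had 1358, 1189 and 1123 in Fezf2 KO libraries, against 1156, 1120 and 1170 in wild type libraries. Both overlapped (log2 0.18 and 0.09).

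The 4 Id genes, which encode dominant-negative helix-loop-helix proteins, gave 0 calls by limma, edgeR or DESeq2. Of all genes 0.712%, 0.689% and 2.3% were called, so 0 of 4 does not set the Id genes apart. An unadjusted limma p under 0.05 was found for 1 of them (Id3), beside 9.03% of all genes. Id1 had 981, 1190 and 986 normalised reads in Fezf2 KO libraries, against 1129, 1119 and 1051 in wild type libraries, with overlap (log2 -0.07, 95% interval -0.28 to 0.14). Id3 had 1440, 1799 and 1673 in Fezf2 KO libraries, against 1907, 1824 and 2051 in wild type libraries. Id3 was lower in every Fezf2 KO library but did not pass (log2 -0.24, limma adjusted p = 0.465). Id2 had 9571, 7775 and 7733 in Fezf2 KO libraries, against 7064, 7400 and 7474 in wild type libraries, all Fezf2 KO libraries being above wild type (log2 0.19, limma adjusted p = 0.562). Id4 had 1816, 2065 and 1721 in Fezf2 KO libraries, against 2165, 2003 and 1412 in wild type libraries, with overlap. The log2 change was above 0 for Id2 and Id4 and below 0 for Id1 and Id3.

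Levels were also put on a common scale, normalised reads per kilobase of merged GENCODE exon, which approximates the gene models the authors counted on. Id2 (3429 ± 430 in Fezf2 KO, against 2999 ± 89.7 in wild type; SD, n = 3 each) and Rgma (2842 ± 48.6 in Fezf2 KO, against 3843 ± 274 in wild type) held the top places, Id2 first in Fezf2 KO and Rgma first in wild type. Neo1 (2101 ± 116 in Fezf2 KO, against 1701 ± 258 in wild type) and the activin receptor gene Acvr1b (2024 ± 69.6 in Fezf2 KO, against 2044 ± 25.4 in wild type) came next. Neo1 and Acvr1b did not differ beyond their spread in Fezf2 KO. Among ligands Inhbb was highest in both genotypes, at 856 ± 82.8 in Fezf2 KO and 578 ± 52.8 in wild type. Gdf10 was at 179 ± 17.2 in Fezf2 KO, within the spread of Gdf11 (176 ± 15.5), whereas in wild type Gdf10 (342 ± 18.5) stood above Gdf11 (181 ± 6.53). Among antagonists Nog had the highest mean, at 986 ± 175 in Fezf2 KO and 580 ± 34.0 in wild type. Fstl1 followed at 523 ± 37.7 in Fezf2 KO and 488 ± 83.4 in wild type, and in wild type the pair did not differ beyond their spread. Tll2 stood at 39.2 ± 10.8 in Fezf2 KO and 14.9 ± 2.81 in wild type, far below Bmp1 (531 ± 14.9 in Fezf2 KO and 483 ± 17.4 in wild type). The lowest levels were those of Tll1 (2.68 ± 0.885 in Fezf2 KO and 3.49 ± 0.78 in wild type) and Bmp5 (2.76 ± 0.609 in Fezf2 KO and 4.64 ± 2.83 in wild type).

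**Figure D4:**
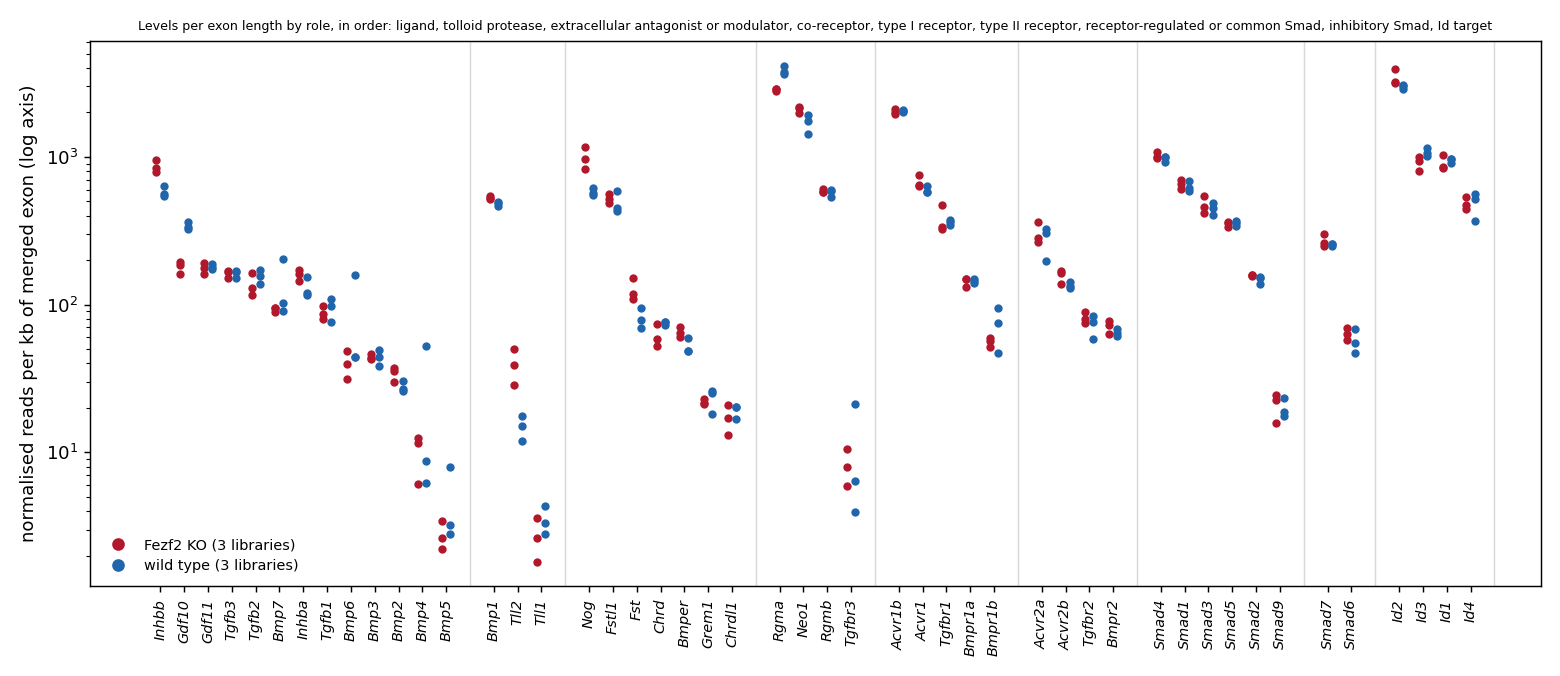
Normalised reads per kilobase of merged exon (log axis) for the 48 genes, grouped by role and ordered by the wild type mean within a role, with Fezf2 KO libraries in red left of wild type libraries in blue. Levels span from Tll1 and Bmp5 at a few reads per kilobase to Id2 and Rgma at the top, and Inhbb leads the ligands in both genotypes.

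Of 105 further genes of the pathway, listed by role, 90 entries were tested, 1 fell and 0 rose, which is 1.11% beside 0.712% of all genes. Kcp and Zeb2 each had more than 1 entry, and entries were counted apart. The median log2 change of the 90 was 0.03. By role, limma called 0 of 12 other ligands, 0 of 31 other antagonists and matrix modulators, 0 of 8 membrane regulators, 0 of 26 intracellular regulators and 1 of 13 targets. Unadjusted limma p values were under 0.05 for 15 of the 90, 12 of them higher, beside 9.03% of all genes, of which 819 were higher and 767 lower. By edgeR 1 of the 90 was called, beside 0.689% of all genes. By DESeq2 3 were called, Ctgf and 2 entries of Zeb2, beside 2.3% of all genes.

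The gene that fell was Ctgf, a secreted matricellular protein and TGF-beta target that also marks subplate neurons. It had 328, 501 and 618 normalised reads in Fezf2 KO 1 to 3, against 1550, 1106 and 1554 in wild type 1 to 3. The genotypes did not overlap (log2 -1.57, SE 0.23, limma adjusted p = 0.0243). Leaving out Fezf2 KO 2 gave a limma adjusted p of 0.0508, leaving out wild type 1 and 3 in turn gave 0.08 and 0.117, and leaving out both Fezf2 KO 1 and wild type 1 gave 0.0667. The table also holds linc-Ctgf-AS, by its name antisense to Ctgf, and with strand not stated reads from an overlap of the pair cannot be assigned. The Smad-binding repressor gene Zeb2 had 14807, 13180 and 14205 in Fezf2 KO libraries, against 11806, 10637 and 12019 in wild type libraries, without overlap (log2 0.29, limma adjusted p = 0.11, DESeq2 adjusted p = 0.00345). A further entry under the symbol Zeb2 was lower in level, with a log2 change of 0.29 (limma adjusted p = 0.193, DESeq2 adjusted p = 0.0304). Ltbp1, which anchors latent TGF-beta in the matrix, had 255, 240 and 218 in Fezf2 KO libraries, against 182, 176 and 168 in wild type libraries, without overlap (log2 0.43, limma adjusted p = 0.184).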

How the data were processed

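Libraries were made from total RNA of 6 newborn cortices (Illumina TruSeq, Genome Analyzer II), per the labels. Bowtie, STAR and DESeq, and the build mm9, are named in the submitters' processing notes; roles, versions, counting rules and strand are not given in the sources used here. The deposited signal holds reads counted per gene and then scaled by a size factor for each library, and is scaled neither per fixed total nor per gene length. All values (100%) were whole multiples of 1 step per library within 0.006, which gave back whole reads. Limits cover counting error only, and a count of 0 allows up to 3 reads.

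Testing used limma on genes that reached a value of 10 in 3 or more libraries, fitted on log2(value + 1), with genotype as the single term, a variance trend and Benjamini-Hochberg adjustment over all genes tested; log2 changes are on that scale and understate those of low genes. The design used the values as deposited, so edgeR and DESeq2 on recovered reads were alternatives; edgeR called 121 genes over the table. Steps were tested on simulated data. Separate pups were the replicates. Litter is labelled, but the main fit left it out, and it was a block only in an alternative. Deviations from genotype means correlated at -0.12 to 0.26 in 5 pairs of libraries of the same litter (14922 genes). In 4 other pairs they correlated at -0.18 to -0.07. The highest, 0.26, was that of Fezf2 KO 3 and wild type 3, both of litter m2. Deviations from a mean of 3 libraries are tied to each other, so these correlations cannot show that litter had no effect.

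The pathway genes, lists and tests were chosen with earlier results of these data known. Values per library were given for changed genes, the 2 genes of smallest p in each role, the Id genes, BMP receptors, BMP and common Smads, inhibitory Smads, tolloid proteases and the 3 further genes of smallest p. Values named outside that rule (Inhba, Bmp4 to Bmp7, Tgfbr3, Tgfb3, Chrd, Bmper and Rgmb) were chosen after they were seen. Of the further pathway and marker symbols, those without an entry were not analysed here. Exon lengths and overlaps came from GENCODE M21 on GRCm38. The software was limma 3.58.1, DESeq2 1.42.0 and edgeR 4.0.16 under R 4.3.3.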

Additional observations from a re-analysis of the deposited data

How the results depend on the processing

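Over the table limma called 125 genes, between 61 and 119 when 1 library was left out, 29 in litter m1 alone, 57 without both Fezf2 KO 1 and wild type 1 (an alternative chosen after seeing the data), and DESeq2 called 403. Of the 48 pathway genes 5 were called, between 2 and 4 with 1 library left out, 3 with litter as a replicate block, 0 in litter m1 alone and 1 without both Fezf2 KO 1 and wild type 1. Of the entries of further pathway genes 1 was called by limma, and 3 by DESeq2, 2 of them under Zeb2. The limma count was 0 or 1 with 1 library left out, 0 in litter m1 alone and 0 without both Fezf2 KO 1 and wild type 1. Fewer samples were fitted in the alternatives that leave libraries out; for the block and DESeq2 the cause was not tested. Litter as a replicate block ended the calls of Inhbb and Nog and no other call among the named genes. Testing without a filter, and edgeR under every scaling tried (TMM, RLE, upper quartile), ended the call of Tll2 (adjusted p from 0.0501 to 0.0507).

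Among genes taken by the naming rule, log2 changes turned in sign in 14 of 435 values from the alternatives, all in genes close to 0. The 435 are no measure of stability. Litter as a block and testing without a filter return the main log2 change exactly, so their values could not turn. Other pseudocounts and scalings use the same libraries, which leaves them little room to turn. Outside that rule Bmp4 and Tgfbr3 turned without wild type 1, as given above. In litter m1 alone the log2 changes of Id4, Bmpr1a and Smad5 turned to -0.105, 0.0656 and 0.0465, and that of Id4 was -0.0045 with upper quartile factors. With libraries left out, Id4 ran from -0.162 to 0.165, Bmpr1a from -0.0642 to 0.0451, Smad1 from -0.0041 to 0.119, Smad5 from -0.0428 to 0.0190 and Smad9 from -0.0661 to 0.253. Between scalings the median log2 change of all genes lay between -0.01 and 0.00. Genes such as Tll1, Bmp4 and Bmp5 had few reads, which limits what could be detected in them.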

Other observations

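Assembled noncoding transcripts are named after their neighbouring gene, and 15 of them carry the symbol of 1 of the 48 pathway genes. Of these 7 were tested and 0 changed by limma, beside 0.712% of all genes. An unadjusted limma p under 0.05 was found for 1 of the 7, beside 9.03% of all genes. That one was linc-Rgma-1, with 78.8, 140 and 91.8 normalised reads in Fezf2 KO libraries, against 143, 154 and 191 in wild type libraries. Its genotypes did not overlap, and its log2 change was -0.68 (SE 0.22, limma adjusted p = 0.344). The more abundant linc-Rgma-BP had 1153, 1132 and 1129 in Fezf2 KO libraries, against 1571, 1672 and 963 in wild type libraries, with overlap (log2 -0.26). The transcript linc-Id4-AS, which by its name lies antisense to Id4, had 625, 759 and 700 in Fezf2 KO libraries, against 789, 709 and 524 in wild type libraries, and linc-Smad7-BP had 935, 817 and 852, against 728, 789 and 828. None of these names shows that the transcript acts on its neighbour.

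Of the 90 further pathway entries tested, 21 did not overlap between genotypes, 16 higher and 5 lower in Fezf2 KO. Over all genes 14.5% did not overlap (7.6% higher, 6.85% lower). The further pathway genes given here were of low abundance and did not pass the test. The myostatin gene Mstn had 8.93, 14.4 and 11.5 normalised reads in Fezf2 KO libraries, against 21.5, 20.9 and 16.3 in wild type libraries (limma adjusted p = 0.439). Atoh8, a BMP-induced helix-loop-helix gene, had 75.5, 62.0 and 71.5 in Fezf2 KO libraries, against 138, 144 and 82.5 in wild type libraries (log2 -0.75, limma adjusted p = 0.285). The Smad corepressor gene Skor1 had 41.4, 41.3 and 41.5 in Fezf2 KO libraries, against 23.4, 30.5 and 26.6 in wild type libraries (log2 0.61, limma adjusted p = 0.299). These 3 were chosen after their values were seen.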
